A study of Mus musculus with 24 samples.

Results

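The genes described here are 10 members of the leukemia inhibitory factor (LIF) pathway: the receptor subunits *Lifr* and *Il6st*, the kinase *Jak1*, the transcription factor *Stat3*, and the STAT3 target genes *Socs3*, *Bcl3*, *Pim1*, *Pim3*, *Klf5* and *Gbx2*. They were taken by symbol from a count table of 26264 genes, in which each of the 10 symbols had a row, and all 10 passed the filter on low counts in every fit. They are followed across 24 RNA-seq libraries from mouse embryonic stem cells (ESCs), self-renewing cells in culture that derive from the early embryo. The ESCs were grown on gelatin in serum with LIF before the experiment. The cells came from a BAP1-AID clone and a UTX-AID clone. In each, an auxin-inducible degron with an HA tag (HA-AID) had been fused by CRISPR to BAP1 (at its C terminus) or to UTX (at its N terminus), and both clones stably overexpressed TIR1. BAP1 removes ubiquitin from histone H2A, and UTX, the product of *Kdm6a*, removes methyl groups from lysine 27 of histone H3. Indole-3-acetic acid (IAA), a plant auxin given before retinoic acid (RA), joins the degron to TIR1 so that the fused protein is broken down. RA was given for 0, 3 or 6 h to cells that had received IAA (+IAA) or had not (−IAA), which makes 12 groups of 2 replicates over the clones. In the +IAA cells, more hours of RA also meant more hours since IAA, and the parts of each cannot be told apart. Each line was 1 clone, no untagged parent cells were among the samples used here, and a vehicle for the −IAA cells was not stated. Nothing in the labels says that replicates came from separate cultures, so the p-values below measure only the spread between these samples, which may be technical.

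LIF binds LIFR, which then pairs with the shared receptor subunit gp130, the product of *Il6st*. The receptor-bound kinase JAK1 phosphorylates STAT3, and STAT3 dimers enter the nucleus and switch on target genes, while SOCS3, itself a target, binds the receptor and JAK1 and shuts the signal down. In mouse ESCs grown in serum, this pathway sustains self-renewal, and RNA levels do not show the phosphorylation step. RA was given in medium without LIF, and whether the 0 h cells were in LIF when collected was not stated. No group had LIF removed without RA, so the effects of RA and of LIF withdrawal cannot be told apart in any comparison over time below.

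The counts of a library summed to between 42018795 and 54034789. RNA of the degron targets does not check their loss, since IAA acts on the protein: in BAP1-AID ESCs, *Bap1* was at 93.3 to 105 CPM (counts scaled to the total of the library) without IAA and at 93.7 to 105 CPM with it, and in UTX-AID ESCs, *Kdm6a* was at 93.5 to 114 CPM without IAA and at 107 to 125 CPM with it. The 8 ESC markers examined, *Pou5f1* and *Nanog* among them, were detected in all 24 libraries, with a summed level of 3659 to 4701 CPM. Each marker varied more than the sum relative to its lowest value, with *Nanog* at 77.1 to 454 CPM and *Zfp42* at 133 to 654 CPM. *Dppa5a* was the most abundant, at 1263 to 1900 CPM. The 6 fibroblast markers summed to 2.47 to 13.9 CPM. *Dcn* (0.596 to 9.67 CPM) and *Thy1* (1.26 to 5.41 CPM) were at 0 in no library. *Col1a1*, *Col1a2*, *Col3a1* and *Lum* reached at most 0.521 CPM and were at 0 in 4, 13, 19 and 22 libraries. This fibroblast sum was 12.1 to 13.9 CPM at 0 h and 6.89 to 8.50 CPM at 6 h in BAP1-AID, and 4.23 to 7.11 and 2.47 to 4.28 CPM in UTX-AID. The 6 primitive endoderm markers summed to 20.0 to 22.3 CPM at 0 h and 23.98 to 29.8 CPM at 6 h in BAP1-AID, and to 28.1 to 31.4 and 29.6 to 33.8 CPM in UTX-AID. *Lama1* was the most abundant of them, and *Sox17* was at 0 in 9 libraries. The part of these markers in the results below was not tested, and in bulk RNA, fewer cells of a type and less RNA per cell cannot be told apart.

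CPM compares a gene between libraries, and for levels between genes the values were divided by the length of the canonical transcript in kilobases. On this scale (CPM per kilobase), the order at 0 h without IAA in BAP1-AID was *Pim1* (16.6 ± 1.06, SD, n = 2), *Pim3* (16.5 ± 0.343), *Gbx2* (12.1 ± 0.816), *Stat3* (8.96 ± 0.238), *Il6st* (8.55 ± 0.0484), *Jak1* (8.23 ± 0.608), *Lifr* (7.68 ± 0.00173), *Klf5* (4.70 ± 0.678), *Socs3* (2.60 ± 0.250) and *Bcl3* (1.18 ± 0.0545). Neighbours that differed by less than the larger of their SDs were *Pim1* and *Pim3*, *Il6st* and *Jak1*, and *Jak1* and *Lifr*. In UTX-AID the order was *Gbx2* (17.8 ± 2.199), *Pim1* (15.8 ± 1.16), *Lifr* (13.7 ± 0.629), *Pim3* (11.7 ± 0.268), *Jak1* (10.2 ± 1.00), *Klf5* (6.84 ± 0.552), *Stat3* (6.59 ± 0.910), *Il6st* (5.77 ± 0.308), *Socs3* (2.205 ± 0.237) and *Bcl3* (0.931 ± 0.380). Such neighbours there were *Gbx2* and *Pim1*, *Klf5* and *Stat3*, and *Stat3* and *Il6st*. The negative feedback gene *Socs3* and the target *Bcl3* were the lowest of the 10 in both clones.

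**Figure D1:**
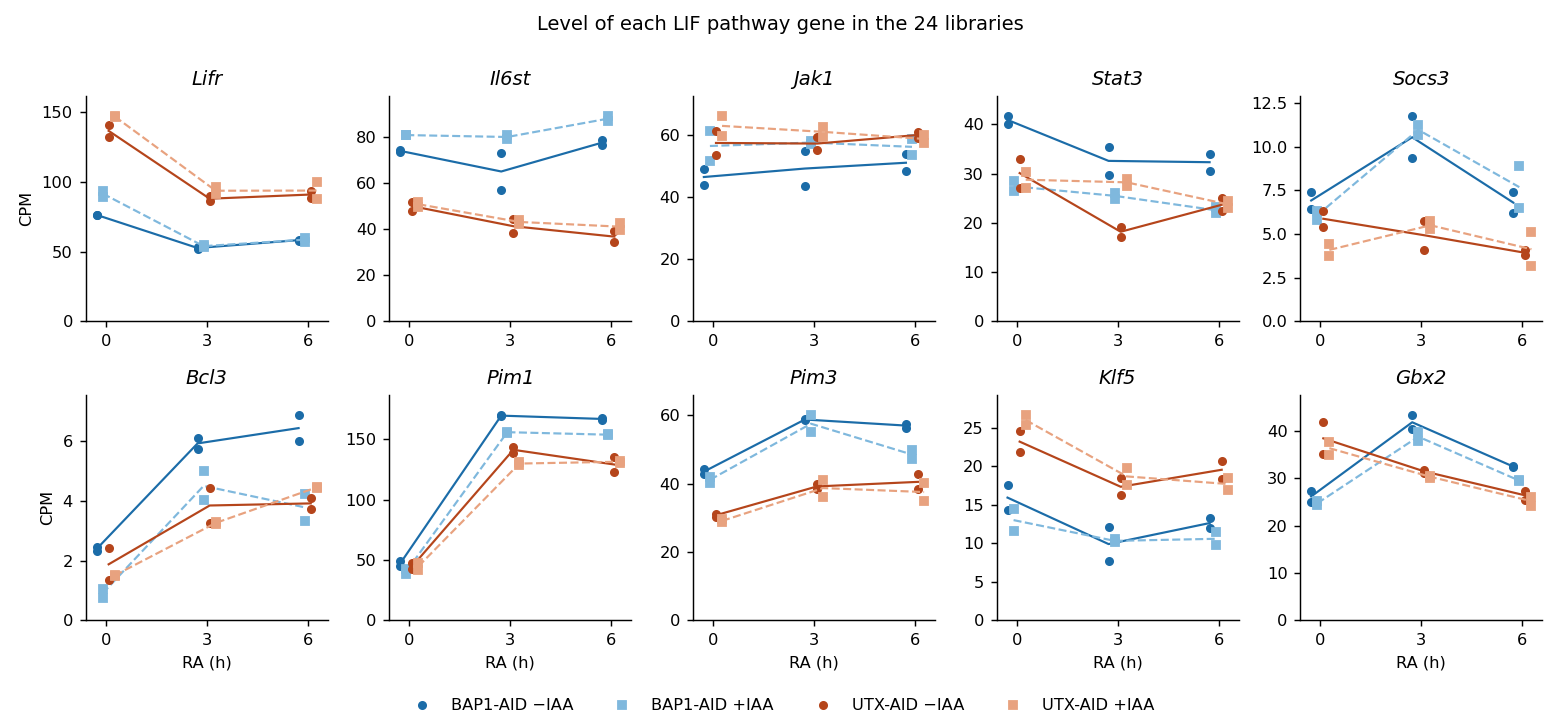
Level of each gene (y axis, CPM, each panel from 0) against hours of RA (x axis), with 1 point per library and lines through the mean of the 2 replicates, blue for BAP1-AID, orange for UTX-AID, circles and solid lines for −IAA, squares and dashed lines for +IAA. *Pim1* and *Bcl3* were higher at 3 and 6 h than at 0 h in every arm, *Lifr* was lower in every arm, and *Gbx2* was higher in the blue and lower in the orange libraries.

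To see how the pathway behaved during induction, each time of RA was compared with 0 h within each clone and arm, where 3 h and 6 h share the 0 h libraries. A gene passed at an adjusted p under 0.05 in edgeR's quasi-likelihood test, and a stricter criterion, a change over 2-fold on top, was applied as well. Changes are given on the log2 scale, ± standard error (SE), n = 2 against 2. At 3 h, 5 of the 10 genes were higher and 1 was lower in −IAA BAP1-AID ESCs, beside 5.51% and 1.85% of all 15695 genes tested. In +IAA BAP1-AID ESCs the counts were again 5 and 1 (4.61% and 1.91% of genes). In UTX-AID ESCs, 3 were higher and 2 lower without IAA (3.56% and 1.28% of 16268 genes) and 3 and 2 with IAA (2.77% and 0.799%). With all libraries kept, the 6 members that passed at 3 h in BAP1-AID were the same 6 in both arms. Of these, *Socs3*, *Bcl3*, *Pim1*, *Pim3* and *Gbx2* were higher and *Lifr* was lower. The set was not stable when single libraries of the groups compared were left out in turn. The change of *Socs3* then ranged from 0.45 to 0.76 without IAA and from 0.80 to 0.91 with it. Without IAA, that of *Klf5* ranged from −1.05 to −0.38 and that of *Stat3* from −0.46 to −0.19.

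At 6 h, 4 genes were higher and 2 lower in −IAA BAP1-AID ESCs (10.8% and 5.08% of genes), and 4 and 1 in +IAA BAP1-AID ESCs (8.93% and 6.44%). The counts were 3 and 3 in −IAA UTX-AID ESCs (4.28% and 2.62%) and 3 and 3 in +IAA UTX-AID ESCs (4.05% and 2.4%). *Pim1* and *Bcl3* were the only members changed over 2-fold, and both were over 2-fold higher in all 8 of these comparisons. Over all genes tested, the share that was over 2-fold higher was 1.89%, 2.05%, 1.28% and 1.1% at 3 h (−IAA and +IAA BAP1-AID, then −IAA and +IAA UTX-AID) and 2.98%, 3.18%, 1.51% and 1.63% at 6 h. The median change of the 10 genes at 6 h was 0.13 in −IAA BAP1-AID, where the median of all genes was 0.016, and −0.28 in −IAA UTX-AID, where it was −0.0026. *Lifr* was lower, and *Pim1*, *Bcl3* and *Pim3* higher, in all 8 comparisons. Each of these counts rests on 2 libraries a group.

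**Figure D2:**
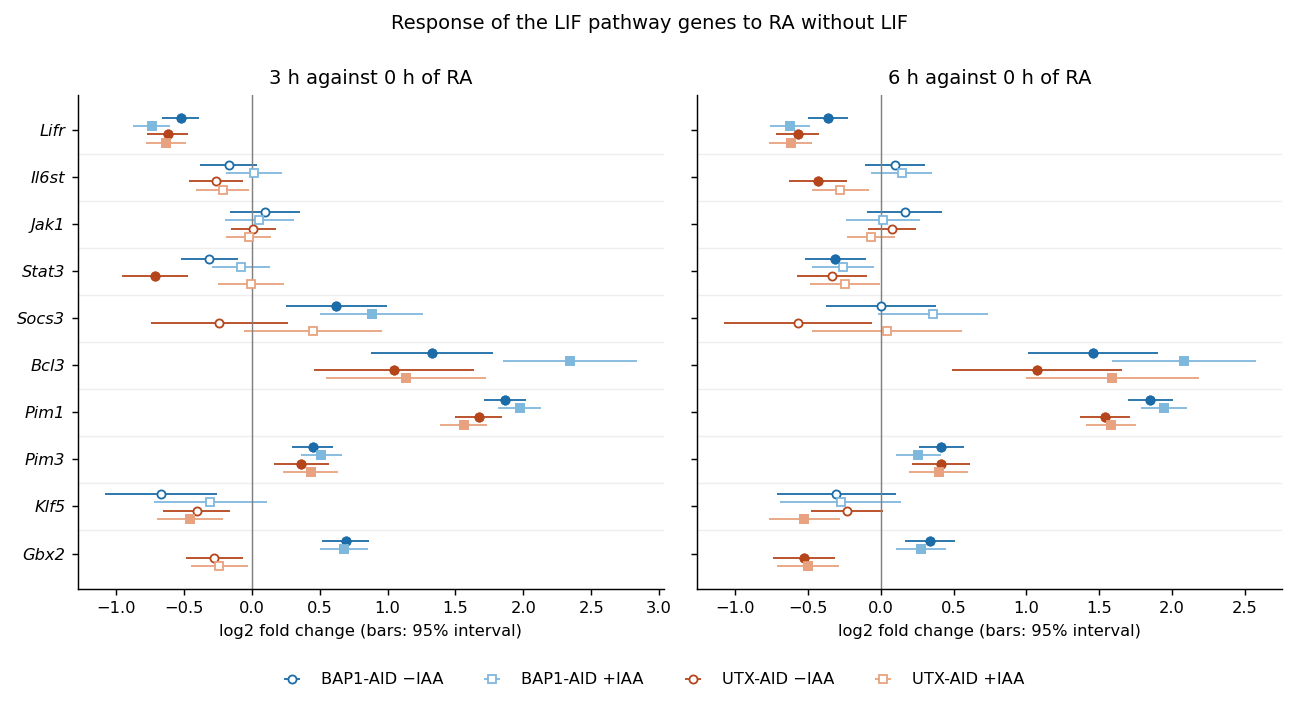
Change of each gene (rows) after 3 h (left) and 6 h (right) of RA against 0 h, on the log2 scale (x axis), with 95% intervals as bars. Filled points passed at an adjusted p under 0.05 and open points did not (blue BAP1-AID, orange UTX-AID, circles −IAA, squares +IAA). The *Pim1*, *Bcl3* and *Pim3* points lie right of 0 in all 4 arms, *Lifr* lies left of 0, and *Gbx2* lies on opposite sides in the clones.

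*Lifr* encodes the LIF-binding receptor subunit (chr15:7120095-7226970 on mm39, plus strand, 20 exons) and was lower after RA in every arm. Without IAA, *Lifr* in BAP1-AID ESCs was at 76.3 and 76.4 CPM at 0 h, 51.7 and 53.5 CPM at 3 h and 57.9 and 58.5 CPM at 6 h, and in −IAA UTX-AID ESCs at 132 and 141 CPM, then 86.2 and 89.8 CPM and 93.2 and 88.8 CPM. Both replicates at 3 and 6 h were below both replicates at 0 h in each arm. Without IAA, the CPM of UTX-AID after RA was still above that of BAP1-AID before it. After the correction for GC content and length described below, UTX-AID was higher by 0.55 at 0 h. Its change without IAA was then −0.63 at 3 h and −0.58 at 6 h, so this order did not hold with the correction. The change was −0.52 ± 0.063 at 3 h in −IAA BAP1-AID (adjusted p = 0.000199) and −0.62 ± 0.069 in −IAA UTX-AID (adjusted p = 3.46e-05). With IAA, *Lifr* changed by −0.74 ± 0.063 in BAP1-AID and −0.63 ± 0.069 in UTX-AID at 3 h. At 6 h the changes were between −0.63 and −0.36 over the 4 arms, all past the threshold, and every one of these calls held when any single library was left out. Against 3 h, *Lifr* at 6 h differed by 0.14 ± 0.045 in BAP1-AID (adjusted p = 0.0930), which did not pass, but passed with DESeq2 and without −IAA 3 h replicate 2 (adjusted p = 0.0234).

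*Il6st* encodes gp130, which LIF shares with other cytokines of the interleukin-6 family (chr13:112600604-112646620, plus strand, 17 exons). In −IAA UTX-AID ESCs it was at 52.0 and 48.2 CPM at 0 h, 44.4 and 38.3 CPM at 3 h and 34.5 and 39.1 CPM at 6 h. All of the later libraries were below those at 0 h, and the change at 6 h was −0.43 ± 0.093 (adjusted p = 0.00860), while that at 3 h, −0.26, did not pass (adjusted p = 0.157). The call at 6 h was lost without −IAA 0 h replicate 1 (adjusted p = 0.0781) or −IAA 6 h replicate 1 (adjusted p = 0.0961). With IAA, UTX-AID changed by −0.28 ± 0.093 at 6 h (adjusted p = 0.102). *Il6st* in −IAA BAP1-AID ESCs was at 73.9 and 74.5 CPM at 0 h, 57.0 and 73.4 CPM at 3 h and 76.9 and 78.7 CPM at 6 h, with the replicates at 3 h further apart than at the other times. No comparison with 0 h passed for *Il6st* in BAP1-AID, where the change at 6 h was 0.10 (95% interval −0.11 to 0.30) without IAA and 0.14 (−0.064 to 0.35) with it.

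*Jak1* encodes the kinase bound to gp130 (chr4:101008838-101122487, minus strand, 25 exons), and no comparison over time passed for it. It stayed between 43.5 and 66.0 CPM in all 24 libraries, the narrowest range of the 10 genes relative to its lowest value (1.52-fold). The 95% interval of its change at 6 h was −0.093 to 0.42 in −IAA and −0.24 to 0.27 in +IAA BAP1-AID, and −0.086 to 0.24 and −0.23 to 0.10 in −IAA and +IAA UTX-AID. Of the 5640 bases of its canonical transcript, 1950 overlap exons of *Raver2* on the opposite strand. *Raver2* was at 13.3 to 19.5 CPM in BAP1-AID and 5.67 to 8.37 CPM in UTX-AID. The strandedness of the libraries was not stated, so reads from the shared bases cannot be told apart.

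*Stat3* encodes the transcription factor that LIF activates (chr11:100775924-100830450, minus strand, 24 exons). In −IAA UTX-AID ESCs it was at 33.0 and 27.2 CPM at 0 h, 17.1 and 19.2 CPM at 3 h and 25.0 and 22.3 CPM at 6 h. Both libraries at 3 h were below all others of this arm, and the change of −0.71 ± 0.12 at 3 h passed (adjusted p = 0.00110), while that at 6 h, −0.33 ± 0.11, did not (adjusted p = 0.110). The latter rested on the libraries in the fit: with each left out in turn it ranged from −0.48 to −0.17, and it passed without −IAA 0 h replicate 2 (adjusted p = 0.0306). With IAA, the same clone was at 30.4 and 27.2 CPM at 0 h and 27.5 and 28.9 CPM at 3 h, with overlapping groups and a change of −0.0053 (adjusted p = 0.999). The test of the difference between these arms' responses gave 0.71 ± 0.16, which did not pass over all genes (unadjusted p = 0.000522, adjusted p = 0.916). *Stat3* in −IAA BAP1-AID ESCs was at 40.1 and 41.7 CPM at 0 h, 29.7 and 35.4 CPM at 3 h and 34.0 and 30.6 CPM at 6 h. All later libraries were below those at 0 h, and the change of −0.31 ± 0.10 at 6 h passed narrowly (adjusted p = 0.0463), and the call was lost without the filter on low counts and without any one of its 4 libraries (adjusted p = 0.0608 to 0.248). At 3 h the change of −0.31 ± 0.10 did not pass (adjusted p = 0.0782), but it was −0.46 and passed without −IAA 3 h replicate 2 (adjusted p = 0.00503).

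*Socs3* encodes the feedback inhibitor of the receptor complex (chr11:117856905-117860898, minus strand, 2 exons). Promoter windows from RefSeq (250 bases before to 50 after a start site) were found for 9 of the 10 members, and the *Socs3* window was the only one of them to hold TTCNNNGAA, the palindrome that STAT dimers are known to bind. The stretch around it, shown as the only match among the 9 members, lies at chr11:117969502-117969530 of GRCm38.p6. It is given 5′ to 3′ on the minus strand, with the palindrome in capitals.
Socs3: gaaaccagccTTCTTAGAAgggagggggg
The first base of the palindrome is 154 bases before the start, and the motif reads the same on both strands, so a search of one strand finds all matches. Of the 27025 genes in the promoter table, 9.55% held it in a window, and so did 8.3% of the 32851 windows. The share of the members, 1 of 9 or 11.1%, was near that of all genes. *Klf5* was not matched in the table. The absence of these letters from the other 8 members' windows says only that they are not in those windows. Direct repeats of the retinoic acid receptor half-site AGGTCA (A or G at the first place, G or T at the third) with 1, 2 or 5 bases between them, searched on both strands after the values were seen, were in none of the 9 members' windows and in 0.263%, 0.311% and 0.115% of all genes.

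*Socs3* RNA rose at 3 h in BAP1-AID and was back near its starting level at 6 h without IAA. In −IAA BAP1-AID ESCs it was at 7.39 and 6.45 CPM at 0 h, 11.8 and 9.33 CPM at 3 h and 6.19 and 7.41 CPM at 6 h, and in +IAA BAP1-AID ESCs at 5.83 and 6.32 CPM, then 10.7 and 11.3 CPM and 6.50 and 8.87 CPM. Both arms were highest at 3 h with no overlap with 0 h, and the rise was 0.62 ± 0.17 without IAA (adjusted p = 0.0481) and 0.88 ± 0.17 with it (adjusted p = 0.00750). The first of these lay at the threshold, since 5 of the 7 alternatives that kept all libraries lost it, and it was also lost without −IAA 0 h replicate 1 (adjusted p = 0.113), −IAA 0 h replicate 2 (adjusted p = 0.261) or −IAA 3 h replicate 1 (adjusted p = 0.195). The second was lost without +IAA 0 h replicate 1 (adjusted p = 0.0973), +IAA 0 h replicate 2 (adjusted p = 0.0529) or +IAA 3 h replicate 2 (adjusted p = 0.0712). From 3 h to 6 h, averaged over the arms, *Socs3* in BAP1-AID fell by 0.57 ± 0.12 on the log2 scale (adjusted p = 0.0133), a call that was lost without −IAA 6 h replicate 1 (adjusted p = 0.0671), +IAA 3 h replicate 2 (adjusted p = 0.0536) or +IAA 6 h replicate 1 (adjusted p = 0.0595). In −IAA UTX-AID ESCs it was at 6.32 and 5.43 CPM at 0 h, 5.77 and 4.09 CPM at 3 h and 3.77 and 4.06 CPM at 6 h. In +IAA UTX-AID ESCs it was at 3.74 to 4.44 CPM at 0 h and at 5.27 to 5.73 CPM at 3 h, without overlap. At 6 h this arm was at 3.16 to 5.09 CPM. No *Socs3* comparison over time passed in UTX-AID, where the change at 6 h without IAA was −0.57 ± 0.24 (adjusted p = 0.226). The difference between the clones at 3 h without IAA, −0.86 ± 0.30, did not pass either (adjusted p = 0.351).

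*Pim1* encodes a serine/threonine kinase and a target of STAT3 that can help sustain ESC self-renewal (chr17:29709581-29715086, plus strand, 6 exons). Without IAA it rose more than any other of the 10 genes in both clones. BAP1-AID ESCs without IAA held *Pim1* at 49.3 and 45.0 CPM at 0 h, 169 and 170.0 CPM at 3 h and 166 and 168 CPM at 6 h. UTX-AID ESCs without IAA held it at 47.2 and 42.6 CPM, then 139 and 144 CPM and 135 and 123 CPM. The levels before and after RA were far apart in every arm, while 3 and 6 h were close. The rise at 3 h was 1.86 ± 0.072, or 3.64-fold, in BAP1-AID (adjusted p = 1.51e-08) and 1.67 ± 0.081, or 3.18-fold, in UTX-AID (adjusted p = 4.21e-09). With IAA it was 1.97 ± 0.072 and 1.56 ± 0.081. Between 3 and 6 h the change was −0.020 (95% interval −0.13 to 0.087) in BAP1-AID and −0.053 (−0.17 to 0.064) in UTX-AID. Every call for *Pim1* against 0 h held with each library left out in turn.

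*Bcl3* encodes an atypical IκB protein, also a target of STAT3 (chr7:19541553-19557570, minus strand, 9 exons), and was the least abundant member, with 39 to 352 counts per library. *Bcl3* in −IAA BAP1-AID ESCs was at 2.31 and 2.46 CPM at 0 h, 5.74 and 6.10 CPM at 3 h and 6.01 and 6.87 CPM at 6 h, and in +IAA BAP1-AID ESCs at 0.760 and 1.05 CPM, then 4.99 and 4.01 CPM and 3.34 and 4.23 CPM. In −IAA UTX-AID ESCs it was at 2.42 and 1.34 CPM, then 4.45 and 3.25 CPM and 3.73 and 4.10 CPM. No library after RA overlapped those of its arm at 0 h, although the 2 replicates of −IAA UTX-AID at 0 h differed from each other. The rise at 3 h was 1.33 ± 0.21 in −IAA (adjusted p = 0.00146) and 2.34 ± 0.23 in +IAA BAP1-AID ESCs (adjusted p = 2.63e-05), and 1.05 ± 0.27 and 1.14 ± 0.28 in UTX-AID (adjusted p = 0.0390 and 0.0314). The larger rise of +IAA BAP1-AID started from a lower level at 0 h, and the difference between the arms at 3 h, 1.02 ± 0.30, did not pass (adjusted p = 0.394). In UTX-AID the call at 3 h was lost without −IAA 0 h replicate 2 (adjusted p = 0.343) or −IAA 3 h replicate 1 (adjusted p = 0.274) in the −IAA arm, and without any one of its 4 libraries (adjusted p = 0.120 to 0.182) in the +IAA arm. The call at 6 h of 1.07 ± 0.27 in −IAA UTX-AID was lost without −IAA 0 h replicate 2 (adjusted p = 0.256), −IAA 6 h replicate 1 (adjusted p = 0.0690) or −IAA 6 h replicate 2 (adjusted p = 0.133).

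*Pim3* encodes a kinase of the same family as *Pim1* (chr15:88746177-88749929, plus strand, 6 exons) and rose in all 4 arms by less than 2-fold. In −IAA BAP1-AID ESCs it was at 44.1 and 42.9 CPM at 0 h, 58.8 and 58.7 CPM at 3 h and 57.6 and 56.4 CPM at 6 h, and in −IAA UTX-AID ESCs at 31.3 and 30.3 CPM, then 38.5 and 39.8 CPM and 38.3 and 42.7 CPM. Every library after RA was above those of its arm at 0 h. The rise at 3 h was between 0.36 (−IAA UTX-AID, adjusted p = 0.0366) and 0.51 (+IAA BAP1-AID, adjusted p = 0.000471). At 6 h it was between 0.26 (+IAA BAP1-AID, adjusted p = 0.0247) and 0.42 (−IAA BAP1-AID, adjusted p = 0.00139). In −IAA UTX-AID the call at 3 h was lost without any one of its 4 libraries (adjusted p = 0.0776 to 0.213) and that at 6 h without −IAA 0 h replicate 2 (adjusted p = 0.101) or −IAA 6 h replicate 2 (adjusted p = 0.135). In +IAA UTX-AID the call at 3 h was lost without +IAA 0 h replicate 1 (adjusted p = 0.121), +IAA 0 h replicate 2 (adjusted p = 0.0812) or +IAA 3 h replicate 1 (adjusted p = 0.217) and that at 6 h without +IAA 0 h replicate 1 (adjusted p = 0.120), +IAA 0 h replicate 2 (adjusted p = 0.0858) or +IAA 6 h replicate 2 (adjusted p = 0.239). In +IAA BAP1-AID the call at 6 h was lost in the fit of all 24 libraries and without any one of its 4 libraries (adjusted p = 0.0975 to 0.248), and the other *Pim3* calls in BAP1-AID held. The difference between the clones in the response to 3 h of RA was −0.084 (95% interval −0.33 to 0.16).

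*Gbx2* encodes a homeobox transcription factor that STAT3 can induce in ESCs (chr1:89855678-89858920, minus strand, 2 exons), and it moved in opposite directions in the clones. In −IAA BAP1-AID ESCs it was at 24.9 and 27.4 CPM at 0 h, 43.3 and 40.4 CPM at 3 h and 32.3 and 32.7 CPM at 6 h. In −IAA UTX-AID ESCs it was at 41.8 and 35.1 CPM, then 31.7 and 31.2 CPM and 27.3 and 25.5 CPM. Every BAP1-AID library after RA was above both at 0 h, and every UTX-AID library after RA was below both at 0 h. In BAP1-AID the rise at 3 h was 0.69 ± 0.079 without IAA (adjusted p = 0.000129) and 0.68 ± 0.079 with it (adjusted p = 0.000138), and from 3 to 6 h it fell by 0.38 ± 0.056 on the log2 scale over the arms (adjusted p = 0.00163). In UTX-AID the change at 3 h was −0.27 ± 0.10 without IAA (adjusted p = 0.162) and −0.24 with it, neither past the threshold. Left-out libraries moved the former between −0.41 and −0.13, and it passed without −IAA 0 h replicate 2 (adjusted p = 0.0485). In the same clone at 6 h it was −0.53 ± 0.10 (adjusted p = 0.00287) and −0.50 ± 0.10 (adjusted p = 0.00439). The rise at 6 h in BAP1-AID was 0.34 and 0.28 without and with IAA, of which the first was lost without −IAA 0 h replicate 1 (adjusted p = 0.117), −IAA 6 h replicate 1 (adjusted p = 0.0895) or −IAA 6 h replicate 2 (adjusted p = 0.107) and the second in the fit of all 24 libraries and without any one of its 4 libraries (adjusted p = 0.148 to 0.238). The UTX-AID calls at 6 h were lost without −IAA 0 h replicate 1 (adjusted p = 0.0505) in the −IAA arm and without +IAA 0 h replicate 1 (adjusted p = 0.0600) or +IAA 6 h replicate 1 (adjusted p = 0.0678) in the +IAA arm.

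The difference itself was tested in a fit of all 24 libraries. Without IAA, the response of *Gbx2* in UTX-AID minus that in BAP1-AID was −0.97 ± 0.12 at 3 h (adjusted p = 0.000356) and −0.85 ± 0.12 at 6 h (adjusted p = 0.000797). *Gbx2* was the only member that passed at either time, beside 0.262% and 0.505% of the 16816 genes tested. With the GC and length correction, *Il6st* passed as well at 6 h (−0.49, adjusted p = 0.0253), and it also did with DESeq2. The *Gbx2* call held without any single library and once the GC content and length of the transcripts were corrected for (−0.91 and −0.89), but at 3 h it did not pass when only the 8 libraries compared were fitted (adjusted p = 0.222). The clones started from different levels, with *Gbx2* higher in UTX-AID at 0 h. In CPM, the order of the clones had turned at 3 and 6 h. With the GC and length correction, *Gbx2* without IAA was higher in UTX-AID by 0.93 at 0 h. The corrected response differences of −0.91 and −0.89 were no larger than this, so the order did not turn in that analysis. Of the 2154 bases of its canonical transcript, 966 overlap exons of the noncoding gene *D130058E05Rik* on the opposite strand, whose reads cannot be told apart without strand, and which had no row of its own. Each clone was 1 line, so a difference between tagged proteins and one between lines cannot be told apart.

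*Klf5* encodes a zinc finger factor that supports self-renewal (chr14:99536086-99552473, plus strand, 4 exons). Its level in −IAA BAP1-AID ESCs was 17.6 and 14.3 CPM at 0 h, 7.71 and 12.1 CPM at 3 h and 11.99 and 13.3 CPM at 6 h, and in +IAA UTX-AID ESCs at 25.4 and 26.6 CPM, then 17.6 and 19.8 CPM and 18.5 and 16.9 CPM. Later libraries were below those at 0 h in these arms. The change passed in +IAA UTX-AID alone, with −0.45 ± 0.11 at 3 h (adjusted p = 0.0389) and −0.52 ± 0.12 at 6 h (adjusted p = 0.00970). The change at 3 h of −0.67 ± 0.19 in −IAA BAP1-AID lay just outside the threshold (adjusted p = 0.0546) and passed under 5 of the 7 alternatives that kept all libraries and without −IAA 3 h replicate 2 (adjusted p = 0.00104), and that of −0.40 ± 0.12 in −IAA UTX-AID did not pass (adjusted p = 0.0633), but did without the filter on low counts. The calls in +IAA UTX-AID were lost without any one of its 4 libraries (adjusted p = 0.0732 to 0.354) at 3 h and without +IAA 0 h replicate 2 (adjusted p = 0.0845) or +IAA 6 h replicate 2 (adjusted p = 0.120) at 6 h. The call at 3 h was also lost after the GC and length correction (adjusted p = 0.0513) and in the fit of all 24 libraries (adjusted p = 0.123). All 8 changes against 0 h were negative, between −0.67 and −0.23.

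From 3 to 6 h, averaged over the arms, *Socs3* and *Gbx2* were the members that passed in BAP1-AID, both lower at 6 h, beside 3.82% of genes lower and 4.33% higher. In UTX-AID no member passed (2 had an unadjusted p under 0.05, and 0 passed with DESeq2, but *Gbx2* passed in the fit of all 24 libraries, with an adjusted p of 0.0279), beside 1.03% of genes lower and 0.639% higher. The count in BAP1-AID rose without −IAA 3 h replicate 2. It fell without −IAA 6 h replicate 1, +IAA 3 h replicate 2 or +IAA 6 h replicate 1. The rise left −IAA 3 h replicate 1 alone in its group, with *Il6st* at 57.0 CPM, against 73.4 CPM in replicate 2. At 0 and 6 h without IAA, *Il6st* in BAP1-AID was at 73.9 to 78.7 CPM. *Jak1* was at 43.5 CPM in replicate 1 and 54.8 CPM in replicate 2, beside 44.0 to 53.8 CPM at 0 and 6 h.

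To see whether the pathway differed with IAA, +IAA was compared with −IAA. Without untagged cells given IAA or a stated vehicle, loss of the tagged protein and other effects of the treatment cannot be told apart. At 0 h in BAP1-AID, 4 of the 10 genes passed, beside 18.5% of all genes. *Bcl3* fell from 2.31 and 2.46 CPM to 0.760 and 1.05 CPM, and *Stat3* from 40.1 and 41.7 CPM to 26.4 and 28.4 CPM. In neither gene did the arms overlap. The change was −1.42 ± 0.23 for *Bcl3* (adjusted p = 0.000967) and −0.60 ± 0.10 for *Stat3* (adjusted p = 0.00103). *Pim1* changed by −0.24 (adjusted p = 0.0361) and *Lifr* by 0.24 (adjusted p = 0.0171). The *Pim1* call was lost without −IAA 0 h replicate 1 (adjusted p = 0.228), +IAA 0 h replicate 1 (adjusted p = 0.400) or +IAA 0 h replicate 2 (adjusted p = 0.0531), and the *Lifr* call without −IAA 0 h replicate 1 (adjusted p = 0.0942), −IAA 0 h replicate 2 (adjusted p = 0.0604) or +IAA 0 h replicate 2 (adjusted p = 0.121). After the correction for GC content and length described below, *Bcl3* (−1.25) and *Stat3* (−0.47) were the members that passed, and *Lifr* was at −0.074. In UTX-AID at 0 h no member passed (1 at an unadjusted p under 0.05, 0 with DESeq2), where 0.043% of all genes did.

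Averaged over the 3 times of RA, 7 members passed in BAP1-AID, 2 higher and 5 lower, beside 36.1% of all genes, and the median of the 10 was −0.13 against −0.035 over all genes. *Stat3* was lower, with a change of −0.50 ± 0.056 (adjusted p = 2.94e-05), and all 6 +IAA libraries, at 22.0 to 28.4 CPM, were below all 6 −IAA libraries, at 29.7 to 41.7 CPM. *Bcl3* was lower too, with a change of −0.87 ± 0.12 (adjusted p = 0.000151), with no overlap of the arms at any of the 3 times. *Pim1* (−0.17, adjusted p = 0.00602), *Pim3* (−0.13, adjusted p = 0.0229) and *Gbx2* (−0.13, adjusted p = 0.0484) were lower, and *Il6st* (0.19, adjusted p = 0.0191) and *Jak1* (0.20, adjusted p = 0.0384) were higher. Of these 5 calls, *Gbx2* was lost without 10, *Pim3* without 8, *Jak1* without 6 and *Pim1* without 1 of the 12 libraries, each left out in turn, with adjusted p-values up to 0.198, 0.152, 0.105 and 0.0513. The *Gbx2* call was also lost with DESeq2, with RLE size factors, without the filter and in the fit of all 24 libraries. The difference between the arms of BAP1-AID varied with GC content over all genes. The Spearman correlation of the change between +IAA and −IAA with transcript GC content over 16208 genes was −0.457 for the BAP1-AID clone. That for UTX-AID was 0.0242, and both are descriptions across genes that are not independent. IAA and a difference in GC bias between the libraries of the arms cannot be told apart as the source. The 3 members with a positive value in BAP1-AID (*Lifr*, *Il6st* and *Jak1*) have transcripts of 45.4% to 47.4% GC, and *Pim1*, *Pim3* and *Gbx2* of 57.6% to 62.3%. *Bcl3*, with the most negative value, has the highest GC content of the 10 (63.7%), and *Stat3* has 52.7%. The members did not all follow this order, since *Klf5* (48.0% GC) was at −0.18 and *Socs3* (58.9% GC) at −0.0015, neither of which passed.

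With GC content and length corrected for, *Stat3* (−0.40, adjusted p = 0.000162) and *Bcl3* (−0.69, adjusted p = 0.00139) still passed in BAP1-AID. *Pim1*, *Pim3* and *Gbx2* changed sign (0.034, 0.057 and 0.090) and did not pass, and neither did *Il6st* (0.033) and *Jak1* (0.079). *Lifr* turned from 0.086 (adjusted p = 0.0864, and a pass without −IAA 3 h replicate 2 (adjusted p = 0.0142)) to −0.18 (adjusted p = 0.00556). *Stat3* and *Bcl3* were thus the members whose call held with and without the correction, and it also held with each library left out in turn.

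**Figure D3:**
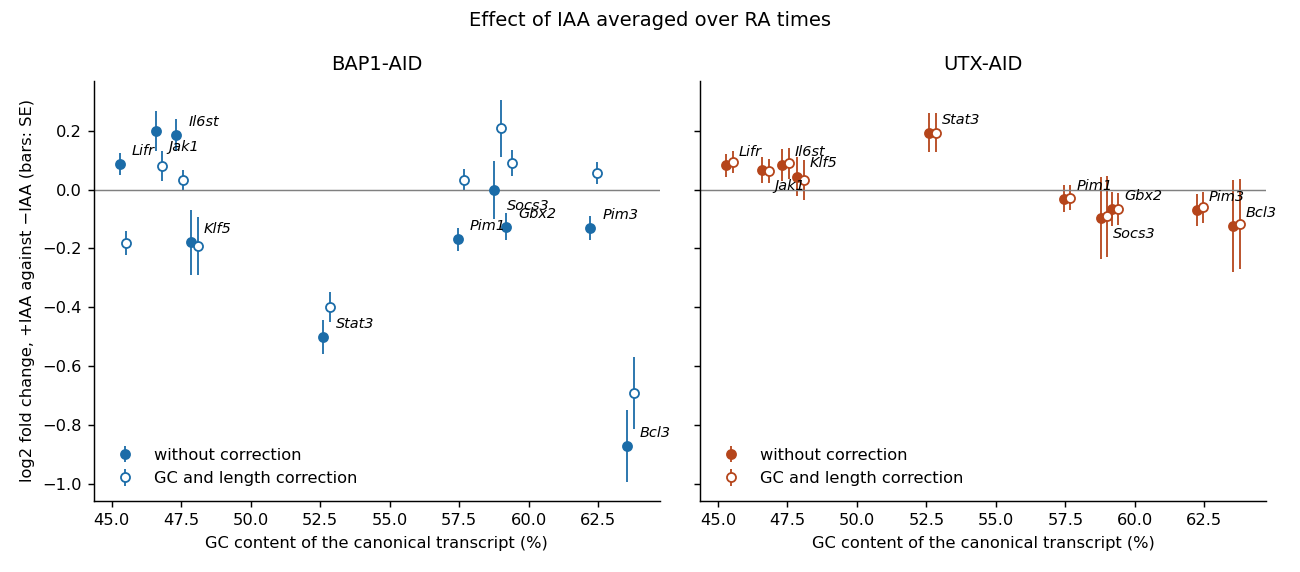
Effect of IAA averaged over the RA times (y axis, log2 fold change, bars ± SE) against the GC content of each gene's canonical transcript (x axis, %), in BAP1-AID (left) and UTX-AID (right), before (filled) and after (open, shifted right for display) the correction for GC content and length. *Stat3* and *Bcl3* lie below 0 in BAP1-AID in both analyses, while *Pim1*, *Pim3*, *Gbx2* and *Lifr* cross 0.

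In UTX-AID, no member passed averaged over the RA times (1 had an unadjusted p under 0.05, 0 passed with DESeq2), where 2.62% of all genes did. *Stat3* was at 0.19 ± 0.066 there (adjusted p = 0.155) and *Bcl3* at −0.12 ± 0.16 (adjusted p = 0.787). The effect of IAA in UTX-AID minus that in BAP1-AID, a test added after these values were seen, was 0.67 ± 0.088 for *Stat3* (adjusted p = 4.26e-06) and 0.73 ± 0.20 for *Bcl3* (adjusted p = 0.00976). No other member passed this test (without BAP1-AID −IAA 3 h replicate 2, the count rose from 2 to 4 in all), which 25.9% of genes passed. After the GC and length correction, the difference was 0.57 for *Stat3* (adjusted p = 5.8e-05) and 0.55 for *Bcl3* (adjusted p = 0.0583), so that the call for *Bcl3* did not hold. In that analysis *Lifr* passed (0.26, adjusted p = 0.00256).

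The response of a member to RA was not found to change with IAA. With edgeR, 0 members passed for 3 h in BAP1-AID (2 had an unadjusted p under 0.05, and 0 passed with DESeq2), and 0 for 6 h (1 and 0). For UTX-AID the count was 0 both for 3 h (1 and 0) and for 6 h (0 and 0). In BAP1-AID, 0% of all genes passed for 3 h (0 genes, beside 1176 at an unadjusted p under 0.05 and 144 with DESeq2) and 0.153% for 6 h. The UTX-AID shares were 0.0123% for 3 h and 0% for 6 h (0 genes in the latter, beside 558 at an unadjusted p under 0.05 and 1 with DESeq2). Leaving out −IAA 3 h replicate 2 let 1 member pass at 3 h in BAP1-AID. The 95% interval of the change in the *Bcl3* response at 3 h was 0.36 to 1.68 in BAP1-AID and −0.74 to 0.91 in UTX-AID, and that of *Socs3* was −0.27 to 0.79 and −0.030 to 1.41. For *Pim1* the intervals were narrower, −0.10 to 0.33 and −0.35 to 0.13.

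Before RA and without IAA, the clones differed in 7 of the 10 genes, beside 52.6% of all genes. *Lifr* was higher in UTX-AID (132 and 141 CPM) than in BAP1-AID (76.3 and 76.4 CPM), and *Il6st* was lower (52.0 and 48.2 CPM against 73.9 and 74.5 CPM). The subunits of the receptor thus differed in opposite directions, by 0.84 ± 0.070 (adjusted p = 5.59e-10) and −0.57 ± 0.10 (adjusted p = 2.32e-05). At each of the 3 times and in both arms, all UTX-AID libraries were above all BAP1-AID libraries for *Lifr* and below them for *Il6st*. *Gbx2* (0.55), *Klf5* (0.54) and *Jak1* (0.31) were also higher in UTX-AID, and *Pim3* (−0.50) and *Stat3* (−0.44) lower. After the GC and length correction *Stat3* (0.038, adjusted p = 0.797) and *Pim3* (−0.083, adjusted p = 0.448) no longer passed, *Pim1* did (0.36, adjusted p = 0.000238), and *Lifr* and *Il6st* kept their direction (0.55 and −0.50). The difference in *Gbx2* grew to 0.93 (adjusted p = 2.47e-09) with this correction. The *Klf5* call was lost without UTX-AID 0 h replicate 1 (adjusted p = 0.0726) or BAP1-AID 0 h replicate 2 (adjusted p = 0.103), and the *Jak1* call without BAP1-AID 0 h replicate 1 (adjusted p = 0.194) or UTX-AID 0 h replicate 2 (adjusted p = 0.185). The fibroblast and primitive endoderm markers also differed between the clones, with the values given above.

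Of 39 other genes of the pathway (ligands, receptors, kinases, STAT factors and inhibitors), the fit of BAP1-AID tested 36 and that of UTX-AID 38. At 6 h, 6 were higher and 2 lower in −IAA BAP1-AID, 3 and 2 in +IAA BAP1-AID, and 1 and 1 in each arm of UTX-AID, with a median change of 0.033 in −IAA BAP1-AID and 0.094 in −IAA UTX-AID, beside the medians of 0.016 and −0.0026 over all genes. The shares of all genes at 6 h were 10.8% and 5.08% (higher and lower) in −IAA and 8.93% and 6.44% in +IAA BAP1-AID, and 4.28% and 2.62% in −IAA and 4.05% and 2.4% in +IAA UTX-AID. The genes that passed without IAA in both clones were *Cntfr* and *Socs2*. *Cntfr* encodes the ciliary neurotrophic factor receptor, which signals through LIFR and gp130. It rose from 19.4 and 20.9 CPM at 0 h to 104 and 106 CPM at 6 h in BAP1-AID, and from 6.17 and 7.21 CPM to 34.5 and 39.0 CPM in UTX-AID. The rise was 2.40 ± 0.074 (adjusted p = 1.31e-09) and 2.47 ± 0.12 (adjusted p = 4.1e-09), larger than that of any of the 10 genes without IAA. Of the receptor genes, *Cntfr* was thus higher and *Lifr* lower. *Socs2*, an inhibitor of the same family as *Socs3*, was lower, with changes of −0.92 ± 0.13 (adjusted p = 0.000308) and −1.21 ± 0.085 (adjusted p = 2.06e-07).

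Of 11 further targets of STAT3, the fit of BAP1-AID tested 10 and that of UTX-AID 11. At 6 h, 2 were higher and 3 lower in −IAA BAP1-AID, 2 and 2 in +IAA BAP1-AID, 1 and 2 in −IAA UTX-AID, and 1 and 1 in +IAA UTX-AID. Their median change was −0.10 in −IAA BAP1-AID and −0.13 in −IAA UTX-AID, to be read beside the same shares and medians of all genes (0.016 and −0.0026). Without IAA, *Mcl1*, *Pim2* and *Ier3* passed in both clones. *Pim2*, the remaining kinase of the family of *Pim1* and *Pim3*, fell from 238 and 238 CPM to 65.4 and 68.2 CPM in BAP1-AID and from 33.5 and 50.9 CPM to 18.7 and 19.4 CPM in UTX-AID. These groups did not overlap, and the change was −1.81 ± 0.062 (adjusted p = 2.29e-09) and −1.13 ± 0.16 (adjusted p = 0.000179), against 1.85 and 1.54 for *Pim1* and 0.42 and 0.41 for *Pim3*. *Mcl1*, an antiapoptotic gene, was higher, with changes of 0.87 ± 0.050 and 0.60 ± 0.055 (adjusted p = 2.06e-07 and 2.74e-06). *Ier3*, an immediate early gene, was lower, with changes of −0.64 ± 0.18 and −0.65 ± 0.14 (adjusted p = 0.0260 and 0.00720).

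**Figure D4:**
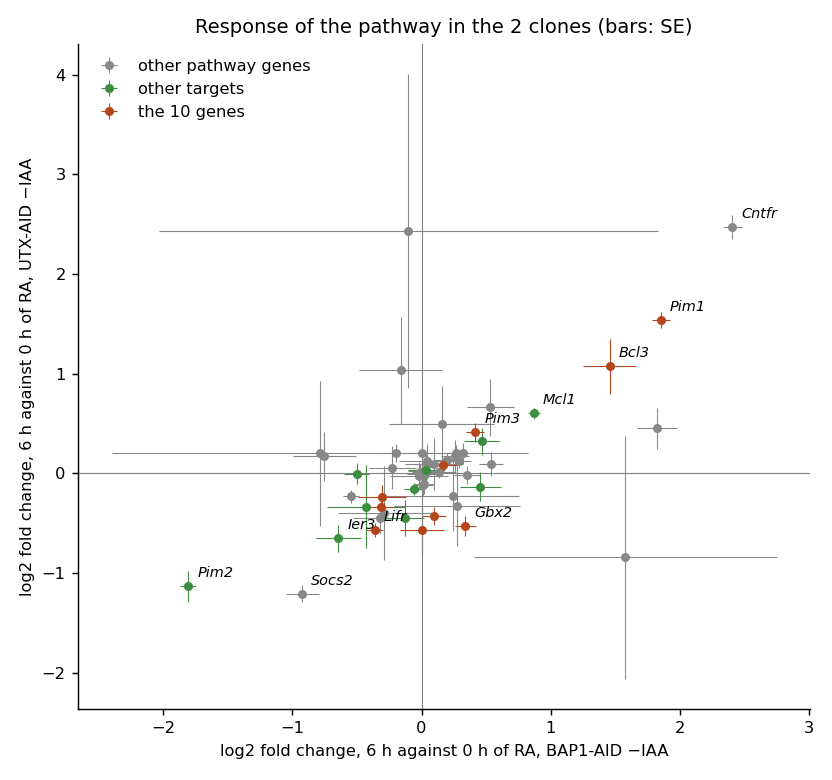
Change after 6 h of RA without IAA in BAP1-AID (x axis) and UTX-AID (y axis), log2 scale, bars ± SE, for the 10 genes (red), 39 listed pathway genes (grey, those tested in both clones) and 11 other targets (green, likewise). *Cntfr*, *Pim1*, *Bcl3* and *Mcl1* lie in the upper right, *Pim2*, *Socs2*, *Ier3* and *Lifr* in the lower left, and *Gbx2* in the lower right.

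To describe which genes had a course like that of a member, log2 CPM values were centred within each clone and arm and correlated over the 24 libraries with 12329 genes above a mean of 1 CPM. The points share libraries, and the values describe likeness only. The closest to *Pim1* were *Acp5* (Pearson r = 0.988, Spearman rho = 0.844), *Cyp26a1* (Pearson r = 0.988, Spearman rho = 0.751) and *Dhrs3* (0.988 and 0.755). *Cyp26a1* and *Dhrs3* encode enzymes of retinoid metabolism that RA is known to induce. The closest to *Pim3* were *Rara* (0.935), *Tnfrsf13c* (0.935) and *Erf* (0.932), of which *Rara* encodes a retinoic acid receptor and *Erf* was also 4th for *Pim1*. *Bcl3* lay closest to *Cnnm2* (0.964), *Slx1b* (0.962) and *Tbx3* (0.960), and *Lifr* to *Stk17b* (0.967), *Zfp608* (0.956) and *L3mbtl3* (0.952).

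The other members had less close neighbours. *Socs3* lay closest to *Pced1b* (0.858), *Mcam* (0.777), *Gli1* (0.714), *Gbx2* (0.707) and *Sh3tc1* (0.697), and *Gbx2* in turn to *Socs3* (0.707), *Gadd45a* (0.702) and *Fntb* (0.689). *Gbx2* was thus the 4th gene for *Socs3* and *Socs3* the 1st for *Gbx2*, the only members found among each other's closest genes. The closest to *Stat3* were *Trank1* (0.816), *Aldh18a1* (0.812) and *Hap1* (0.804), to *Klf5* *Nfx1* (0.849), *Dzip1l* (0.837) and *D630045J12Rik* (0.835), to *Il6st* *Arhgef3* (0.903), *Lratd2* (0.816) and *Sgms1* (0.799), and to *Jak1* *Desi2* (0.789), *Cdon* (0.779) and *Clspn* (0.768). By Spearman's rho, the first gene by Pearson's r stayed among the closest 5 for *Il6st*, *Jak1*, *Socs3*, *Klf5* and *Gbx2*, and not for *Lifr*, *Stat3*, *Bcl3*, *Pim1* and *Pim3*.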

How the data were processed

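Poly(A) RNA of mouse ESCs was sequenced from 24 libraries in 12 groups of 2. The deposited values are estimated counts per gene, as whole numbers, which the authors made with HISAT2 2.2.1 (alignment to mm39), SAMtools 1.19 and StringTie 2.2.1, which derives counts from coverage. deepTools 3.5.4 is also named in the submitters' processing notes. The annotation, the strandedness and the read length are not given in the sources used here. Of 26264 genes, 5222 were at 0 in every library. Groups came from the sample labels.

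Counts were tested with edgeR 4.0.16 (R 4.3.3), with TMM scaling, a filter on low counts (filterByExpr, minimum count 10, minimum total 15), the quasi-likelihood test, 1 coefficient per group and p-values adjusted by Benjamini-Hochberg over every gene of the fit. Each clone was fitted apart (12 libraries), and the clones were compared in a fit of all 24. Intervals are 95% intervals of the fit, and edgeR's estimate of biological variation (BCV) was 11.6% for BAP1-AID and 11.9% for UTX-AID libraries. The log2 of the counts plus 1 correlated between replicates with Pearson r = 0.975 to 0.981, over genes with any count. CPM used the TMM-scaled totals. Coordinates are on mm39 (GENCODE) and promoters on GRCm38.p6 (RefSeq).

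The alternatives were DESeq2 1.42.0, RLE size factors, no filter, the replicate number as a block, offsets for GC content and transcript length (splines per library, alone and with the block), another set of libraries in the fit, and fits without each single library. The steps were tested on simulated data. The members and the gene lists were chosen with earlier results of these data known. The genes named beyond the members are those of the 2 lists that passed at 6 h without IAA in both clones, and the genes most like a member by Pearson's r.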

Additional observations from a re-analysis of the deposited data

Results flagged for a closer look

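Of the 10 genes, 3 differed between the clones in a test of the difference itself. *Gbx2* responded to RA in opposite directions: without IAA, its response in UTX-AID minus that in BAP1-AID was −0.97 at 3 h and −0.85 at 6 h on the log2 scale (edgeR, adjusted p = 0.000356 and 0.000797), with the libraries after RA above those at 0 h in BAP1-AID and below them in UTX-AID. The call at 3 h did not hold when only the 8 libraries compared were fitted (adjusted p = 0.222). Within UTX-AID, the fall of *Gbx2* at 3 h did not pass in either arm. The calls for *Gbx2* at 6 h within each clone were lost when some single libraries were left out. For *Stat3*, the effect of IAA averaged over the RA times was 0.67 higher in UTX-AID than in BAP1-AID (adjusted p = 4.26e-06), and for *Bcl3* it was 0.73 higher (adjusted p = 0.00976). After the GC and length correction, *Stat3* still passed (0.57) and *Bcl3* did not (0.55, adjusted p = 0.0583). The tests of *Stat3* and *Bcl3* were added after the effects in each clone were seen, and 25.9% of all genes passed them. Each clone was 1 line, so the tagged protein and the line cannot be told apart.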

How the results depend on the processing

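With RLE size factors and without the filter, each count of members that passed stayed within 1.5 times the reported one. With DESeq2, 4 members passed for 6 h against 3 h in BAP1-AID (2 reported) and 2 for the difference between clones at 6 h (1 reported). For all genes, DESeq2 called 144 in the change with IAA of the 3 h response in BAP1-AID (edgeR 0), 304 at 6 h (24), 3 and 1 in UTX-AID (2 and 0), 74 for IAA at 0 h (7) and 716 averaged over RA times (427) in UTX-AID, 460 for 6 h against 3 h in UTX-AID (272), and 166 and 308 for the difference between clones at 3 and 6 h (44 and 85). In the fit of all 24 libraries, 3 members passed at 6 h in +IAA BAP1-AID (5 reported) and 1 for 6 h against 3 h in UTX-AID (0). With the groups compared alone, 0 passed for the difference between clones at 3 h (1), where the fit has fewer libraries to estimate the spread.

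The GC and length correction left 2 members at 0 h (4 reported) and 3 averaged over RA times (7) for IAA in BAP1-AID, and 2 for the difference between clones at 6 h (1), where *Il6st* passed as well. It turned the direction of *Lifr* at 0 h to −0.074, and, averaged over RA times, of *Pim1* to 0.034, *Pim3* to 0.057, *Gbx2* to 0.090 and *Lifr* to −0.18, all for IAA in BAP1-AID, and of *Stat3* between clones to 0.038. With the replicate block as well, these were −0.074, 0.034, 0.057, 0.090, −0.18 and 0.037, and the counts 2, 3 and 2, with 1 for 6 h against 3 h in UTX-AID.

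Replicate numbers did not pair the samples: over 15 pairs of groups a clone, the deviations of samples with one number correlated with r = −0.0224 to 0.0565 in BAP1-AID and −0.00913 to 0.0743 in UTX-AID. With the replicate block, 1 member (*Gbx2*, −0.26) passed for 6 h against 3 h in UTX-AID (0 reported), and the other 21 counts stayed within 1.5 times.

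Leaving out single libraries moved the number of members that passed in every comparison of 3 or 6 h with 0 h. Among these, it varied most at 3 h in −IAA BAP1-AID. There, the change of *Klf5* ranged from −1.05 to −0.38, that of *Stat3* from −0.46 to −0.19 and that of *Socs3* from 0.45 to 0.76. In BAP1-AID, the number also moved for 6 h against 3 h, for IAA at 0 h and for IAA averaged over RA times. It moved as well for the change with IAA in the 3 h response of BAP1-AID. Between the clones, it moved at 0 h and for the effect of IAA. The other numbers of members that passed did not move. An arm left with 1 library is assumed to vary like the others. Of the values of single members, 473 kept their call, 91 lost and 8 gained one, and none changed direction. The cause of these shifts was not tested. The lowest counts per library were those of *Bcl3* (39 to 352) and *Socs3* (167 to 567), and the part of depth in their spread was not tested.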
